A study of Mus musculus with 2 samples.

Results

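The genes described are the 8 listed members of the dystrophin-glycoprotein complex on an array comparison of mouse mandibles: Dmd, Utrn, Dag1, Sgca, Sgcb, Sgcd, Sgce and Cav3. They were chosen by name, as every probe set that the platform annotation gives to 1 of these genes, and each of the 8 had 1 probe set, among 19938 genes and 35557 probe sets in all. The rule that describes the group also names syntrophin, but no syntrophin is among the listed genes, so the syntrophins are described below with other genes of the complex. The series set mandible RNA of BALB/c fetuses without functional Myf5 and MyoD genes (Myf5-/-:MyoD-/-, the double knockout) beside mandible RNA of wild-type BALB/c fetuses, both at E18.5 (embryonic day), to ask what skeletal muscle does for the growing lower jaw. Both genes encode basic helix-loop-helix factors that turn progenitor cells into skeletal myoblasts. Each genotype has 1 array of 1 colour, hybridised with biotin-labelled cRNA from 6 µg of total RNA. With 1 array per genotype no difference has a replicate check, and none was tested. The sources used here do not give how many embryos made up each sample, nor which part of each gene was deleted.

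The dystrophin-glycoprotein complex is a chain of proteins across the muscle fibre membrane. Dystrophin holds cytoskeletal actin at one end and the transmembrane protein beta-dystroglycan at the other, and alpha-dystroglycan on the cell surface binds laminin in the basement membrane through its sugar chains. Sarcoglycans and sarcospan sit beside dystroglycan and steady it, while syntrophins and dystrobrevins bind dystrophin inside the cell and carry signalling proteins. Loss of some of these parts causes muscular dystrophy. Several parts are also used outside skeletal muscle: dystroglycan in most epithelia and in nerve, utrophin in many tissues as the relative of dystrophin, and epsilon-sarcoglycan in place of alpha-sarcoglycan. By this textbook knowledge Sgca and Cav3 were counted as muscle-only, Dmd and Sgcd as muscle genes with other sites of expression, and Utrn, Dag1, Sgcb and Sgce as broad.

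The stretches around the start sites of 5 members are shown because Myf5 and MyoD bind the E-box, with the letters CANNTG, and because these members span the range of differences: Sgca, Cav3 and Dmd, whose signal in the double knockout was below the signal limit (each array's median over probe sets with an annotated gene), Sgcb, a broad member that was lower, and Utrn, which had the same value on both arrays. Sequences are from RefSeq (GRCm38.p6), 5′ to 3′ along the gene, from 250 bases before to 50 bases after a start site, with each CANNTG match in capitals. The windows lie at chr11:94976278-94976577 on the minus strand (Sgca), chr6:112459255-112459554 on the plus strand (Cav3), chrX:82948620-82948919 on the plus strand (the first of 2 listed Dmd starts), chr5:73647688-73647987 on the minus strand (Sgcb) and chr10:12861686-12861985 on the minus strand (Utrn).
Sgca: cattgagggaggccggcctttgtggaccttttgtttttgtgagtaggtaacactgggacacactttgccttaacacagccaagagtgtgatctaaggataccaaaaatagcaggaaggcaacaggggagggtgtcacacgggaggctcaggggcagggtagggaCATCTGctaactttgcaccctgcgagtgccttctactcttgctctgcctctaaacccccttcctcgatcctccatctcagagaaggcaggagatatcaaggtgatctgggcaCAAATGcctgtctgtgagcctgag
Cav3: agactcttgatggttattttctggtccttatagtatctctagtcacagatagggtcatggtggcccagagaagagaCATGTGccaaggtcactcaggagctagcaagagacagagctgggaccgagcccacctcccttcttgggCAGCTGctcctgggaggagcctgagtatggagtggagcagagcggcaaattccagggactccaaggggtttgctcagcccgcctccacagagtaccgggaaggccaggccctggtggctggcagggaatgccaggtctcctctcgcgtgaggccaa
Dmd: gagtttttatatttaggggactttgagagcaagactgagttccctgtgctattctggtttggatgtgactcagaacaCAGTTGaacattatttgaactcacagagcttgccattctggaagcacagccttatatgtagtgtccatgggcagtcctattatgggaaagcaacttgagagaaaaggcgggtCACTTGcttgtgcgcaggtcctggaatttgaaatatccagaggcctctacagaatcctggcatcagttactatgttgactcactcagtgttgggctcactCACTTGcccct
Sgcb: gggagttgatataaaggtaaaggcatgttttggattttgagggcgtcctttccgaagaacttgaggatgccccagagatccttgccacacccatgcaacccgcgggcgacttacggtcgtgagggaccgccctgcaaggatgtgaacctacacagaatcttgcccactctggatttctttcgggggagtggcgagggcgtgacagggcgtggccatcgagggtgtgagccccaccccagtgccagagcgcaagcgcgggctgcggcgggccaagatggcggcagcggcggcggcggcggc
Utrn: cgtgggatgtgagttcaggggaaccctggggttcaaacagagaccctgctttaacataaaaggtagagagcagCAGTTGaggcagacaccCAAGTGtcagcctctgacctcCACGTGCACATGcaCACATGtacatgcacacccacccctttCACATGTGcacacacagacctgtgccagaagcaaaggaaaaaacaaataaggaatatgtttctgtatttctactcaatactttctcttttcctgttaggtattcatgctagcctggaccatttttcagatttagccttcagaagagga

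The motif was found 2 times in the Sgca window, 86 bases upstream and 27 bases downstream of the start. In the Cav3 window it was found 2 times, 174 and 106 bases upstream, and the nearer of these was the form CAGCTG. The Dmd window held 3 matches and the Sgcb window 0. The Utrn window held 7, of which those 98 and 96 bases upstream overlap. Windows were found for 7 of the 8 members (none for Sgce). Of the others, Sgcd had 2 matches, Dag1 had 1 in each of its 2 overlapping windows, and the second Dmd start, which lies 2099 kb downstream of the first, had 0. CANNTG reads the same on both strands and is common, present in 72.3% of all 32851 windows of this length, and CAGCTG in 16.3%. A match is a run of letters and not a shown binding site. Of all windows, 0.18% held 7 or more matches, as the Utrn window did. Whether the matches bear on the differences in signal was not tested, and the windows shown were chosen with the values known.

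Over the 8 members, 3 were 2-fold or more lower in the double knockout (Sgca, Dmd and Sgcb), 0 were 2-fold or more higher and 5 were neither. Among all 10393 genes measured, 2.73% were 2-fold or more lower and 0.510% 2-fold or more higher. In the double knockout 5 were above the signal limit, and in the wild type all 8. The file marks no detection calls, and the signal limit that stands in for them was 6.19 on the double-knockout array and 6.18 on the wild-type array. Values below it were raised to it, so that a difference with 1 array at the limit is only bounded, which is marked by "at least". All differences subtract the wild-type log2 value from that of the double knockout. The median difference of the members was -0.73 or lower, since it rests in part on the Cav3 bound, and -0.86 with no limit. Over all genes measured it was 0.10 either way. Of the 8 members, 7 were negative while Utrn was at 0. Without the signal limit 4 members were 2-fold or more lower, Cav3 being added, beside 3.59% of all genes measured. At a threshold of 1.5-fold, 5 were lower, beside 5.11% of all genes. With the limit at the 75th percentile of each array, 5 members were left and 0 were 2-fold or more lower, beside 2.61% of the 5131 genes measured there.

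**Figure D1:**
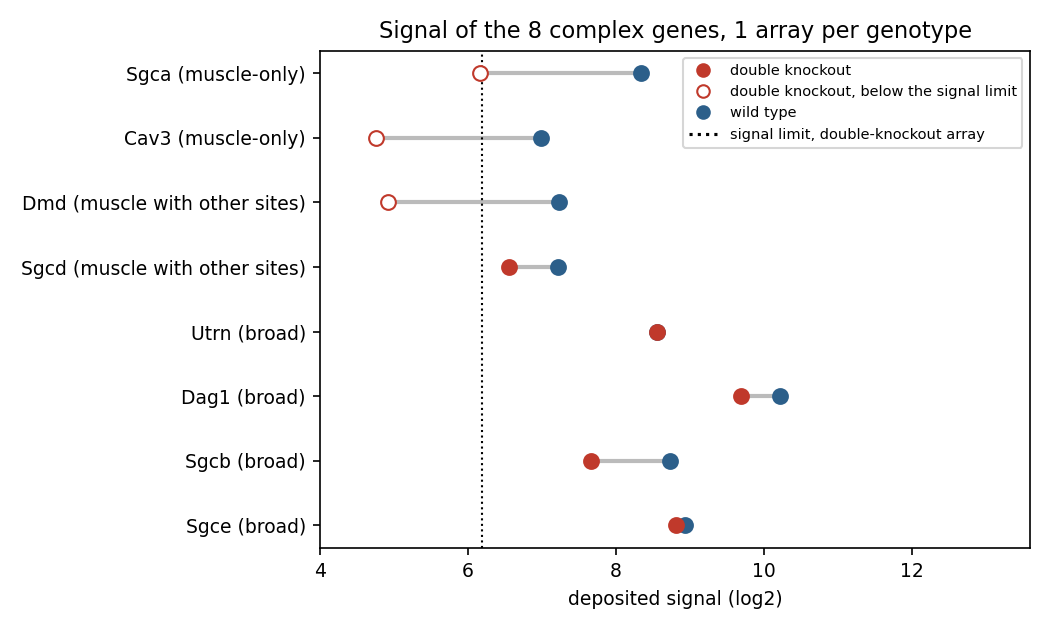
Deposited log2 signal (horizontal axis) of each listed gene, 1 row per gene with its class in brackets; red points are the double-knockout array, open where below the signal limit (dotted line at 6.19), blue points the wild-type array, and 1 point stands for 1 array. Sgca, Cav3 and Dmd lie below the signal limit in the double knockout and above it in the wild type, while the points of Utrn coincide.

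Both targeted genes were lower in the double knockout. Myf5 was at 4.95, below the signal limit, in the double knockout and at 6.31 in the wild type, which bounds its difference at only 1.09-fold, and Myod1 was at 6.49 in the double knockout and at 7.14 in the wild type. Whether their probe sets lie in the deleted parts is not stated in these sources, so the remaining Myod1 signal checks nothing. The bone markers Ibsp, Sp7, Alpl, Phex and Dmp1 were above the limit on both arrays. Deposited values ran from 1.42 to 13.34 on the double-knockout array and from 1.42 to 13.35 on the wild-type array, with a Pearson r of 0.980 between them. A spread can be had only within genes: where 532 genes had a pair of bright probe sets, the differences given by the pair disagreed with an SD of 0.23. This leaves out differences between animals and hybridisations. Since the members have 1 probe set each, no member has such a check of its own.

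The muscle-only members were both below the signal limit without Myf5 and MyoD. Sgca encodes alpha-sarcoglycan, the sarcoglycan of striated muscle. It was at 6.16 in the double knockout, just under the signal limit of 6.19, and at 8.34 in the wild type, a difference of -2.15 or lower, at least 4.45-fold. Cav3 encodes caveolin 3, the caveolin of muscle, which binds beta-dystroglycan. It was at 4.75 in the double knockout and at 6.98 in the wild type. Its wild-type signal was close to the signal limit, so that the largest fold that could be measured was 1.74, and this is the bound reached: at least 1.74-fold lower (-0.80). The deposited values of Cav3 differ by -2.23. In bulk RNA such as this, fewer muscle cells and less RNA per muscle cell cannot be told apart.

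Dystrophin and its relative utrophin differed from each other. Dmd encodes dystrophin, whose long form is made in muscle and brain and whose short forms start at internal promoters in other tissues. It was at 4.91 in the double knockout and at 7.24 in the wild type, a difference of -1.05 or lower, at least 2.07-fold, again as far as the signal limit allowed. The sources used here do not say which dystrophin forms the probe set reads. Utrn encodes utrophin, which lies along the fetal muscle membrane and later at the neuromuscular junction, and is also made by vessels, epithelia and nerve. It had 8.55 on both arrays, equal to the last deposited digit. Such identity was not peculiar to Utrn: 87 of the 10393 genes measured (0.837%) had identical deposited values on both arrays, as did 1626 of all 35557 probe sets (4.57%), and what made them identical was not tested. Utrn was at -0.098 after centring on the median of all genes, and at -0.028 after quantile normalisation. Since its wild-type signal would have allowed a 5.15-fold drop to be measured, the signal limit did not hide a difference in Utrn.

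The sarcoglycans differed in graded amounts. After Sgca, the next was Sgcb, which encodes beta-sarcoglycan, a core subunit that is also made outside muscle. Sgcb was at 7.67 in the double knockout and at 8.73 in the wild type, 2.10-fold lower (-1.07), with both values above the signal limit. Of the 9468 genes above the signal limit on both arrays, 114 (1.20%) were lowered more. Delta-sarcoglycan, encoded by Sgcd, pairs with beta-sarcoglycan and is also made in smooth muscle. It was at 6.56 in the double knockout and at 7.21 in the wild type, 1.58-fold lower (-0.66), and 2.88% of those genes were lowered more. Sgce encodes epsilon-sarcoglycan, the broadly made relative of alpha-sarcoglycan. It was at 8.82 in the double knockout and at 8.94 in the wild type, a difference of -0.12, within the SD of 0.23 between probe sets.

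Dystroglycan itself was lower by less than 2-fold. Dag1 encodes the precursor of alpha- and beta-dystroglycan. It was at 9.69 in the double knockout and at 10.22 in the wild type, 1.44-fold lower (-0.53), so that 69.4% of the wild-type signal remained. Of the genes above the signal limit on both arrays, 4.03% were lowered more. Over all genes measured, the 5th percentile of the differences was -0.59 and the 95th was 0.50. Dag1 lay inside this range, as did Sgce and Utrn, while Sgcd, Sgcb, Dmd, Cav3 and Sgca lay below it.

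By class, the muscle-only members had a median difference of -1.48, the muscle members with other sites -0.85 (bounds included in both), and the broad members -0.32. The muscle-only median minus the broad one was -1.15 or further from 0, since both muscle-only values are bounds, and it followed the signal limit: it was -1.89 without a signal limit and -0.24 at the 75th percentile, where Sgca was the only muscle-only member left. The classes were not separate, since Sgcb among the broad members (-1.07) was lower than Sgcd (-0.66). With the classes drawn otherwise the distance was -0.60 (Dmd and Sgcd counted as muscle-only) or -0.88 (both counted as broad). These, like the value at the 75th percentile, are bounds and could lie further from 0. How far redrawing the classes alone changes the distance cannot be read from them.

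**Figure D2:**
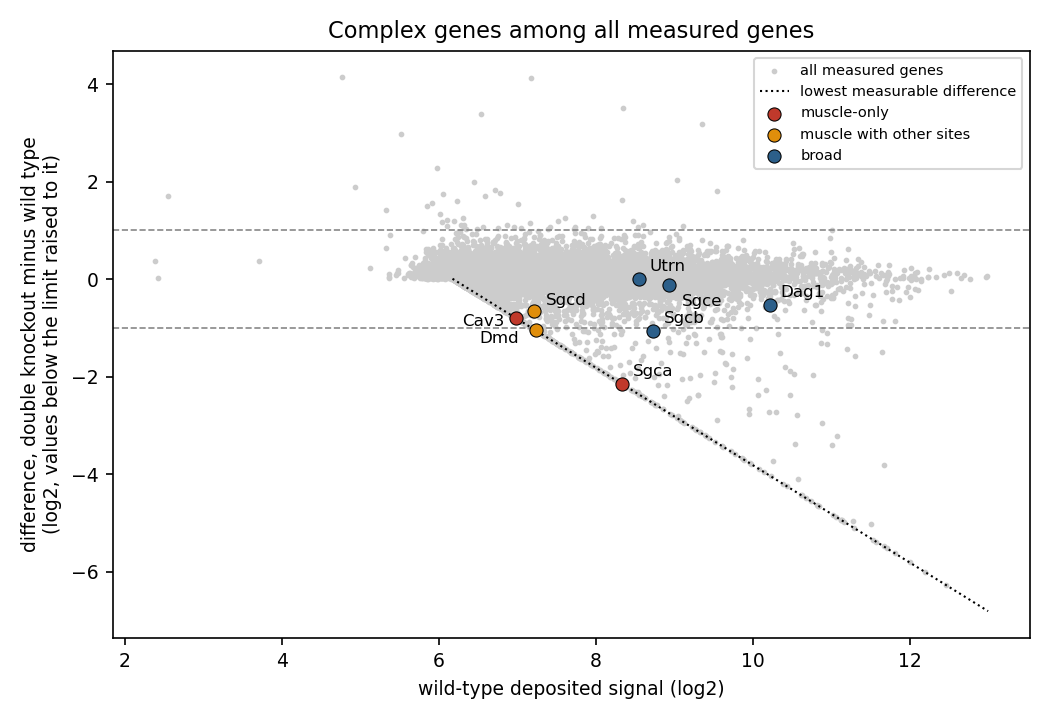
Log2 difference (values below the signal limit raised to it), double knockout minus wild type (vertical axis), against the wild-type deposited log2 signal (horizontal axis); grey points are all 10393 measured genes, coloured points the 8 members by class, dashed lines the 2-fold thresholds and the dotted line the lowest difference the signal limit allows. Sgca, Cav3 and Dmd lie on the dotted line, so that their differences are bounds, and the other 5 members lie above it.

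The other proteins of the complex were mixed as well. Of 12 further genes, 2 are not analysed here, 3 were below the signal limit on both arrays (Sgcz, Sntg1 and Sntg2), and 7 were measured. Of these 7, 2 were 2-fold or more lower (all genes: 2.73%) and 0 2-fold or more higher (all genes: 0.510%). Their median was -0.52 or lower, being the bound of Nos1, and -0.76 without the signal limit. Dtna, which encodes the alpha-dystrobrevin of muscle, was at 5.88 in the double knockout, below the signal limit, and at 7.87 in the wild type, at least 3.21-fold lower. Sspn encodes sarcospan, the small membrane protein that travels with the sarcoglycans. It was at 6.85 in the double knockout and at 8.23 in the wild type, 2.61-fold lower, and 78 of 9468 genes were lowered more. The beta-1 syntrophin gene Sntb1 was at 8.39 in the double knockout and at 9.15 in the wild type (1.69-fold lower). Sntb2, for the other beta-syntrophin, was at 7.92 in the double knockout and at 7.84 in the wild type, a difference of 0.08 that is less than the median of 0.10 over all genes. Nos1, the neuronal nitric oxide synthase that binds syntrophin in muscle, was at 5.70 in the double knockout, below the signal limit, and at 6.71 in the wild type, at least 1.44-fold lower, as far as its bound reached. Dtnb, named after its value was seen, encodes the beta-dystrobrevin of non-muscle tissue and was at 8.02 in the double knockout and at 7.55 in the wild type, 1.38-fold higher.

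Genes listed for the glycosylation of alpha-dystroglycan, which include general sugar suppliers such as Gne and Dpm2, had a median near that of all genes. Of 19 listed, 4 are not analysed here, 2 were below the signal limit on both arrays and 13 were measured, all of them above the signal limit on both arrays. Of the 13, 0 were 2-fold or more lower (all genes: 2.73%) and 1 was 2-fold or more higher (all genes: 0.510%). With a share this small, 0 lower among 13 genes does not set them apart. Their median was 0.04 (-0.057 after centring on the median of all genes). The 1 was Gne, the first enzyme of sialic acid synthesis, at 9.67 in the double knockout and 8.48 in the wild type, 2.29-fold higher. The xylosyl- and glucuronyltransferase gene Large2 was at 8.25 in the double knockout and at 7.74 in the wild type (0.51). The kinase gene Pomk (0.28), the glucuronyltransferase gene B4gat1 (0.22) and the dolichol-phosphate-mannose subunit gene Dpm2 (0.20) came next. The other 8 lay between -0.062 and 0.061. The summed linear signal of the salivary gland markers, genes of a tissue that secretes sialylated proteins, was 8.47 times as high in the double knockout as in the wild type, and the part of this in the values of Gne was not tested.

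Genes for the ligands that dystroglycan binds outside the cell had a median near 0. Of 11 listed ligand genes, 1 is not analysed here and 10 were measured, with a median of -0.06. Of these, 0 were 2-fold or more lower (all genes: 2.73%) and 0 2-fold or more higher (all genes: 0.510%). With shares this small, counts of 0 among 10 genes do not set the ligands apart. The lowest was Lama2, the laminin alpha-2 chain of the muscle and Schwann cell basement membrane, at 8.28 in the double knockout and 8.91 in the wild type, 1.55-fold lower. Agrn, for the heparan sulfate proteoglycan agrin, was at 9.37 in the double knockout and at 9.06 in the wild type (0.31). Lama5 differed by 0.22, Egflam by 0.16, Hspg2 (perlecan) by -0.07 and Lamc1, the gamma-1 chain shared by most laminins, by -0.08.

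Caveolin 3 was examined beside the other genes of caveolae, the flask-shaped pits of the cell membrane. All 8 caveolar genes were measured, with a median of -0.51. Of these, 3 were 2-fold or more lower (all genes: 2.73%) and 0 2-fold or more higher (all genes: 0.510%). The muscle cavin Cavin4 was at 4.18 in the double knockout, below the signal limit, and at 8.14 in the wild type, at least 3.87-fold lower. Pacsin3, for a membrane-bending protein abundant in muscle, was at 6.00, below the limit, in the double knockout and at 7.56 in the wild type (at least 2.59-fold lower). Cavin2 was at 5.79, below the limit, in the double knockout and at 7.34 in the wild type (at least 2.22-fold lower). Cav1, the general caveolin of vessels and mesenchyme, was at 9.58 in the double knockout and at 10.18 in the wild type, 1.51-fold lower. Cavin3, a further cavin, differed by -0.25.

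Of 8 genes of membrane repair, 6 were measured, with a median of -0.09. Of these, 1 was 2-fold or more lower (all genes: 2.73%) and 0 2-fold or more higher (all genes: 0.510%). Trim72, whose product patches torn muscle membranes and binds caveolin 3, was at 4.04 in the double knockout, below the signal limit, and at 7.80 in the wild type, at least 3.07-fold lower. Dysferlin, Dysf, another repair protein of the fibre membrane, was at 7.63 in the double knockout and at 8.34 in the wild type, 1.63-fold lower. The annexins Anxa1, Anxa2 and Anxa6, made in many cells, differed by 0.23, -0.03 and -0.15.

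Genes of the costamere, the rib that ties the sarcomere to dystrophin and integrins at the membrane, spread widely. All 14 were measured, with a median of -0.41 or lower, since it rests in part on a bound, and -0.49 without the signal limit. Of these, 5 were 2-fold or more lower (all genes: 2.73%) and 0 2-fold or more higher (all genes: 0.510%). Desmin, Des, the intermediate filament of muscle, was at 6.33 in the double knockout and at 11.28 in the wild type, 31.1-fold lower. Sync, for syncoilin, which joins desmin to alpha-dystrobrevin, was at 5.94 in the double knockout, below the signal limit, and at 9.63 in the wild type, at least 10.9-fold lower. Flnc, for the muscle filamin that binds sarcoglycans, was at 7.77 in the double knockout and at 10.56 in the wild type, 6.92-fold lower. Itga7, the laminin-binding integrin alpha-7 of muscle, was at 5.62 in the double knockout, below the limit, and at 7.55 in the wild type, at least 2.57-fold lower. The fifth was the ankyrin gene Ank2, named after its value was seen, at 2.18-fold lower. The common integrin beta-1 gene, Itgb1, differed by -0.07.

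**Figure D3:**
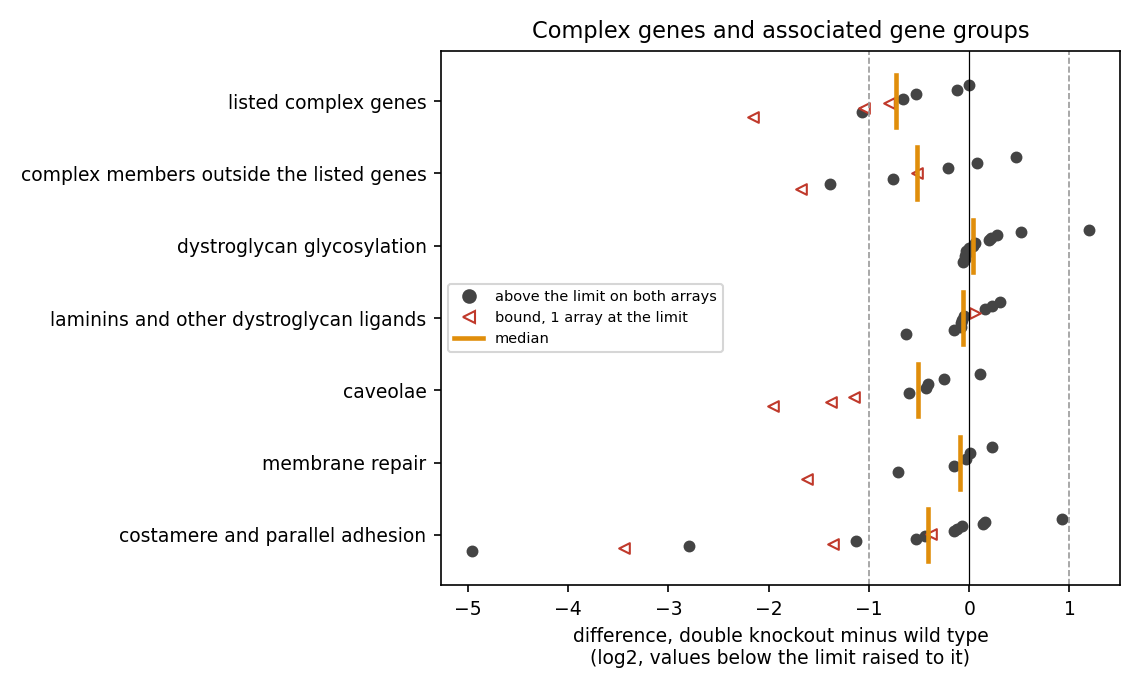
Log2 difference (values below the signal limit raised to it), double knockout minus wild type (horizontal axis), of each measured gene in the 8 listed complex genes and 6 associated groups; filled points are above the signal limit on both arrays, open triangles are bounds and point to larger differences, orange bars are group medians and dashed lines the 2-fold thresholds. Most glycosylation genes and dystroglycan ligands gather near 0, while the complex, caveolar, membrane repair and costamere groups reach below -1.

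Related or partner genes of the complex were set side by side, 9 pairs in all, chosen with earlier results known. Because the order within pairs was also set with the values known, which gene of a pair was lower is given as a description. The Sgcb and Sgcd pair ran against the classes, since the broad member Sgcb was the lower one. Sgca was at least 2.04 log2 units below Sgce, Dtna at least 2.15 below Dtnb, and Cavin4 at least 1.52 below Cavin1. Dmd was at least 1.05 below Utrn. Among pairs above the signal limit on both arrays, Sntb1 was 0.83 below Sntb2, Dysf 0.72 below Myof, Lama2 0.58 below Lama4 and Sgcb 0.41 below Sgcd. These distances were 1.82 to 3.68 times the SD between probe sets of 1 gene. Cav3 was at least 0.20 below Cav1, less than that SD, with the Cav3 difference bounded by the limit. With the signal limit at the 75th percentile, the Cavin4 minus Cavin1 distance came to 0.067. The Cavin4 difference is only a bound there, so this does not place Cavin4 above Cavin1. Without a signal limit the distance was -3.53.

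**Figure D4:**
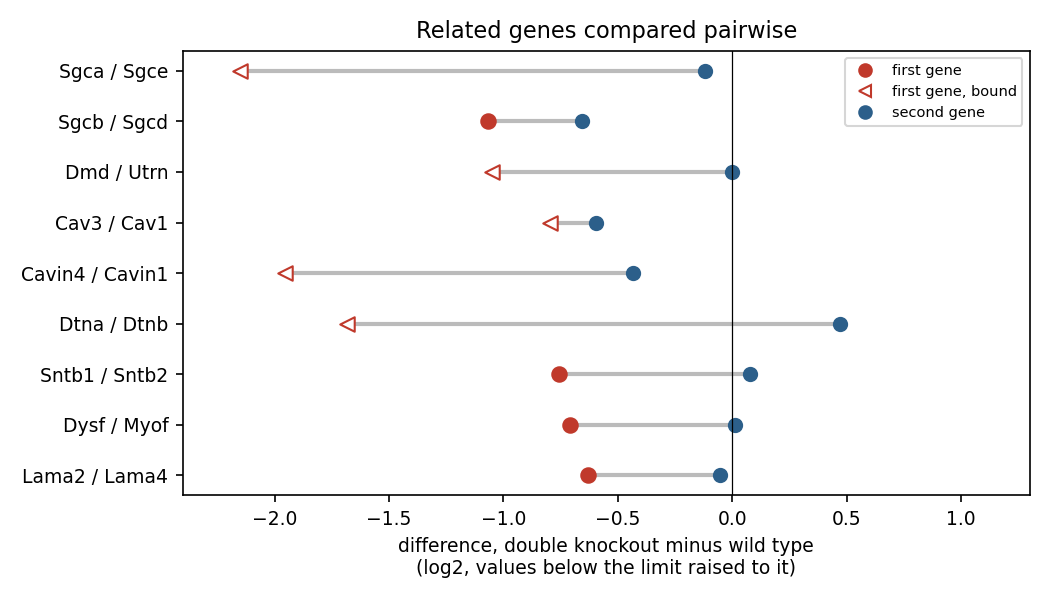
Log2 difference (values below the signal limit raised to it), double knockout minus wild type (horizontal axis), of both genes in 9 pairs of related genes; red marks are the gene named first, drawn as an open triangle where the difference is a bound, and blue points the gene named second. The order within pairs was chosen with the values known; of these 9 pairs, the longest distances are those of Dtna and Dtnb and of Sgca and Sgce.

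Markers of the cells a mandible sample can hold were read beside these values. All 12 markers of skeletal muscle fibres were 2-fold or more lower, none of them above the limit in the double knockout and all above it in the wild type, with differences from -6.01 to -3.42 (bounds). Their summed signal was 8.57 in the double knockout and 14.95 in the wild type (log2 of the summed linear signal). With each value below the limit raised to it, the double-knockout sum was at most 2.76% of wild type. For the 8 complex genes the deposited sums were 11.02 in the double knockout and 11.66 in the wild type. With values raised to the limit in the same way, the double-knockout sum was at most 67.1% of wild type. By class it was at most 32.3% for the muscle-only members, at most 55.8% for the muscle members with other sites and 74.8% for the broad members. Of 6 cardiac markers, 5 were below the signal limit on both arrays, among them Myh6, Nppa and Myl7. The 1 measured was Tnnt2, a troponin T gene of heart that fetal skeletal muscle also uses, at 5.90, below the limit, in the double knockout and at 9.88 in the wild type, at least 12.9-fold lower. Without Des, which skeletal muscle shares, 6 of 7 smooth muscle markers were measured, none 2-fold apart. The summed signal of all 7 markers, with Lmod1 below the limit on both arrays, was 11.02 in the double knockout and 11.71 in the wild type. Within them Acta2, the smooth muscle actin that fetal skeletal muscle also makes, was 1.91-fold lower, and it passed 2-fold after centring on the median of all genes.

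Markers of other cell types differed in both directions. All 8 endothelial markers were measured, with a median of -0.025 and a summed signal of 11.49 in the double knockout and 11.48 in the wild type. The 5 measured genes listed as Schwann cell markers (Sox10, Mbp, Pmp22, Mpzl2 and Egr2) had a median of 0.43. Their summed signals were 11.34 in the double knockout and 11.62 in the wild type. The sum and the median differ in direction because Pmp22, the brightest, was the only 1 lower (-0.55). Sox10, Mbp and Egr2 were close to the signal limit in the wild type (6.40 to 6.46). How specific these genes are to Schwann cells was not tested. The 7 epithelial markers had a median of 0.49 and summed signals of 12.84 in the double knockout and 12.48 in the wild type. The osteoblast markers (5 measured, median 0.55) and cartilage markers (4 measured, median 0.44) had medians above 0, and all 6 salivary gland markers were 2-fold or more higher, from 3.25-fold (Aqp5) to 17.4-fold (Pip). Erythroid, macrophage, adipocyte and neuron markers had 2, 6, 1 and 3 measured members, none 2-fold apart. What part these cell types have in the values of Utrn, Dag1, Sgcb and Sgce was not tested.

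**Figure D5:**
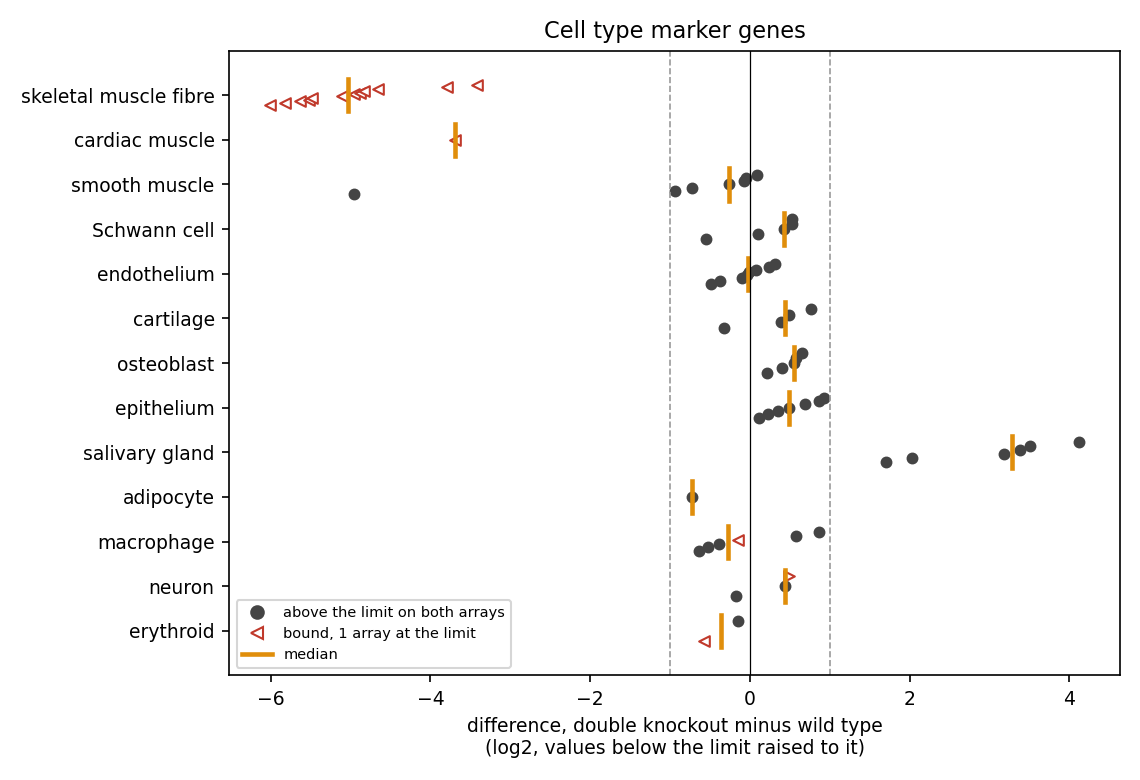
Log2 difference (values below the signal limit raised to it), double knockout minus wild type (horizontal axis), of the measured markers of 13 cell types; filled points are above the signal limit on both arrays, open triangles are bounds and point to larger differences, orange bars are medians and dashed lines the 2-fold thresholds. Skeletal fibre markers lie between -6.01 and -3.42 and salivary gland markers above 1, with most other markers between -1 and 1.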

How the data were processed

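Total RNA from 1 double-knockout and 1 wild-type mandible sample was labelled with biotin for Affymetrix arrays, per the labels' protocols. The deposited table holds 1 log2 value per probe set and array. MAS5 is named, with no version, per the submitters' processing notes, but 1626 probe sets tie exactly between the arrays, so the summary method behind the deposited values is uncertain; the background correction, the scaling between arrays, the log step and the build are not given in the sources used here. That the base is 2 was read from the range of the deposited values. Because the scaling is unknown, small differences shared by many genes cannot be told from it: the deposited medians were 5.45 (double knockout) and 5.48 (wild type).

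Gene names came from GEO's platform annotation: 21789 probe sets named 1 gene, 1621 several and 12147 none. Of several probe sets of a gene, the one with the highest mean linear signal stood for it. A gene was measured when above the signal limit on at least 1 array. Values, counts and medians were computed in Python 3.11.15 with pandas 2.3.3, and the counting was tested on simulated data. No test between genotypes was possible. The members, lists, pairs and motif were chosen with earlier results of these data known. Named were all members, Myf5, Myod1, and per list the 4 genes with the largest differences and the 2 brightest. Alternatives were other scalings, signal limits, thresholds, classes and the median over probe sets. The number of arrays limits the precision.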

Additional observations from a re-analysis of the deposited data

How the results depend on the processing

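Of 45 recomputed differences of single members, 41 were negative, 0 positive and 4 were 0, and 40 moved by less than the SD of 0.23 between probe sets. Many of the 40 could not have moved further, so this tally is no check of the values. Centring shifts every member by the same 0.098. A lower limit or none leaves members above the limit on both arrays unchanged, and the median over probe sets leaves all members unchanged. The 5 that moved further were Sgca at the 75th percentile (-0.57) and Cav3 (-2.23) and Dmd (-2.32), each with the limit at the 25th percentile and with no limit. At the 75th percentile Cav3, Dmd and Sgcd were not measured. The count of members 2-fold or more lower was 0 with a limit at the 75th percentile, 5 at a threshold of 1.5-fold and 1 at 3-fold. With the 75th percentile, 1.5-fold and 3-fold, in that order, all genes past the threshold in the lower direction numbered 134, 531 and 161, and those higher 20, 319 and 18. The distance between the muscle-only and the broad median came to -1.89 both at the 25th percentile and with no limit, -0.24 at the 75th percentile, -0.60 with Dmd and Sgcd counted as muscle-only and -0.88 with both counted as broad. The values at the 75th percentile and with the classes redrawn are bounds and could lie further from 0. The smaller counts at the higher limit follow from its construction, since it leaves less room below the wild-type signal. The distance between Cavin4 and Cavin1 came to 0.067 there, with Cavin4 only bounded, so its sign does not show a reversal. At this limit the counts of genes 2-fold or more lower were 0 for the further complex genes, 0 for caveolae, 0 for membrane repair and 3 for the costamere. Over all 5131 genes measured there, the share was 2.61%. Some genes of these lists, among them Cavin2 and Pacsin3, lay below this limit on both arrays and were not measured. The median over probe sets left the members' values as they were, because each has 1 probe set. No paired analysis was possible because each genotype has 1 array. Signal over background limits Cav3, Sgcd and Dmd: their wild-type signals allowed drops of 1.74-fold, 2.04-fold and 2.07-fold to be measured.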
